A study of Homo sapiens with 6 samples.

Results

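Noncoding RNAs grouped as linked to interferon or to the nucleus, 8 genes in all, were followed in HT1080 cells treated with IFNβ. They are NRIR, BISPR, HCP5, PSMB8-AS1, NEAT1, MALAT1, GBP1P1 and ASMTL-AS1, chosen by name among the 62710 genes of the table with earlier results of these data known. For ASMTL-AS1 no such tie is described here, and the study itself selected it on these libraries. The 8 names matched 9 rows, since GBP1P1 is listed under more than 1 Ensembl ID. Each gene is described with neighbouring coding genes, such as CMPK2 for NRIR and BST2 for BISPR, or, for GBP1P1, with coding genes of its family. HT1080 is an established human fibrosarcoma cell line. RNA was sequenced from 3 untreated libraries and from 3 libraries of cells given 20 ng/mL IFNβ for 24 h. The labels and the cell culture methods name human IFNβ for these cells, whereas the RNA sequencing methods name mouse IFNβ. No gene was deleted or silenced in any library, and the labels do not say whether the 3 libraries of a group came from separate cultures, although the study states in general that its in vitro data rest on independent biological replicates. The p-values below measure the spread between these libraries.

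Type I interferons such as IFNβ bind a cell surface receptor whose kinases JAK1 and TYK2 phosphorylate transcription factors, among them STAT2. STAT2 and IRF9 are parts of a complex that binds the interferon-stimulated response element (ISRE), and a further element bound in interferon responses is the gamma-activated site (GAS). Many long noncoding RNA genes lie head to head, antisense or next to an interferon-stimulated coding gene. NRIR and BISPR are known as negative and positive regulators of neighbouring or wider interferon-stimulated genes, and HCP5 and PSMB8-AS1 lie in the major histocompatibility complex. GBP1P1 is a pseudogene of the guanylate-binding protein family. NEAT1 is the scaffold of paraspeckles and MALAT1 is a nuclear speckle RNA, both abundant in many cell types, and ASMTL-AS1 is antisense to ASMTL in the pseudoautosomal region.

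The sequences below are shown because BISPR and PSMB8-AS1 start beside interferon-stimulated coding genes and hold motif matches there. TAP1, which overlaps PSMB8-AS1, and GBP1, a coding gene of the family of GBP1P1, are shown for ISRE matches before their RefSeq starts. By the gene positions of GENCODE release 29, the matches of TAP1 and GBP1 lie within the genes. The words before and within refer below to RefSeq starts. The ISRE and the GAS were searched on both strands of RefSeq promoter windows, from 250 bases before to 50 bases after each start on GRCh38.p14. The letters were GAAANNGAAA for the ISRE and TTCNNNGAA for the GAS. Of 35116 windows, 3.57% held the ISRE and 7.66% the GAS. Each sequence is given 5′ to 3′ on the plus strand with the matched letters in capitals, and a match is a description of these letters only.
From BST2 across the BISPR start, chr19:17405649-17405721: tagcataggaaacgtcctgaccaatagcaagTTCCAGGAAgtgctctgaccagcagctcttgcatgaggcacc
Further into BISPR, chr19:17405738-17405767: attaggtTTTCAGTTTCAGTTTCCCAGAAa
Before PSMB8-AS1, chr6:32844032-32844061: aggaggaagtGAAAGCGAAAgccacagatc
Within PSMB8-AS1, chr6:32844094-32844122: cccctgccttTTCCGAGAAaaggacagtt
Before TAP1, chr6:32853816-32853845: tttagggGAAAGCGAAATCGAAAgcggccg
Before GBP1, chr1:89065316-89065345: agagtaatatGAAACTGAAAgtacttcgtt

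Promoter windows were found for 5 of the 8 noncoding RNA genes, and none was used for NEAT1, GBP1P1 and ASMTL-AS1. The BISPR window held a GAS match that covers the start of BISPR itself, and this match is also in the window of BST2, which runs the other way. The BST2 window further held a pair of overlapping ISRE matches, which read TTTCAGTTTC on the plus strand and lie 59 to 74 bases past the start of BISPR, followed by an overlapping GAS match. All of these matches are also in a window of MVB12A, a gene that was not called. The PSMB8-AS1 window held an ISRE match 44 to 35 bases before the start and a GAS match 19 to 27 bases after it, and both lie in a window of PSMB8 on the opposite strand. The windows of NRIR, HCP5 and MALAT1 held neither set of letters, and the same was so for the CMPK2 windows.

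**Figure D1:**
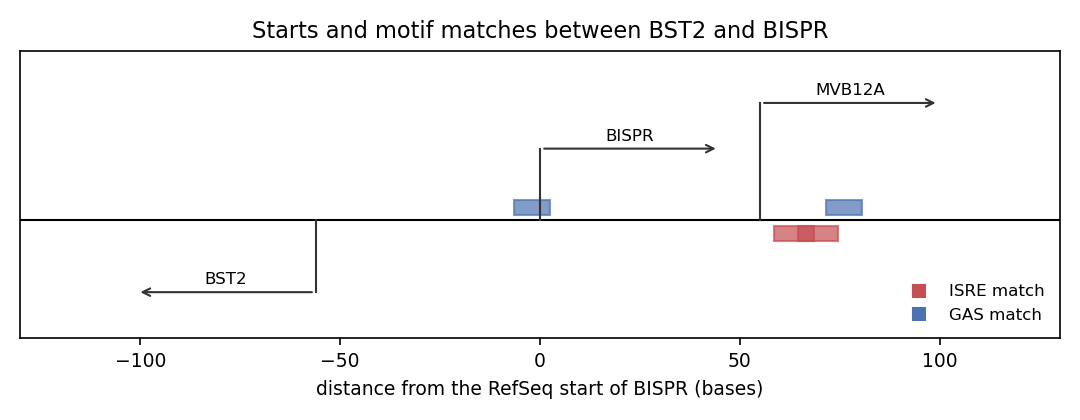
Distances in bases from the RefSeq start of BISPR (x axis) of the RefSeq starts of BST2, BISPR and MVB12A, drawn as arrows in the direction of transcription, and of the ISRE and GAS matches, drawn as boxes. BISPR and BST2 start head to head, and both ISRE matches lie 59 to 74 bases past the start of BISPR.

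The values are FPKM, in which fragments are divided by the length of the gene and the depth of the library. Levels of different genes can be set side by side only as far as the gene lengths used hold. For some genes these differ from GENCODE release 29, as for GBP1P1 with 1740 against 2352 exon bases. Whether fragments on exons shared between genes were left out was not tested. The values rest on 22848104 to 32915500 fragments per library, the shallowest of a group being untreated 1 and IFNβ 2. On a gene of 1 kb, 1 fragment is worth 0.0304 to 0.0438 FPKM. Whole fragments per gene could be recovered and are given beside low levels. Summed markers of mesenchymal cells lay at 1438 to 1497 FPKM in untreated and 1335 to 1376 FPKM in treated libraries, with 7 of 8 markers above the filter and THY1 near 0. No epithelial or immune marker reached a mean of 0.1 FPKM, and the 3 endothelial markers summed to 0.212 to 0.357 FPKM untreated and 0.343 to 0.441 FPKM treated. In these bulk libraries, more RNA per cell and more cells with the RNA cannot be told apart.

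After IFNβ, 5 of the 7 noncoding RNAs that could be tested were differentially expressed genes (DEGs) with a higher level: BISPR, GBP1P1, PSMB8-AS1, NRIR and ASMTL-AS1. None was a lower DEG. Since the study had selected ASMTL-AS1 on these same libraries, its call is no independent result. A gene was tested with limma on log2(FPKM + 0.1) where its mean over the 6 libraries reached 0.1 FPKM, and was called a DEG where its p-value, adjusted by Benjamini-Hochberg, was under 0.05 and its log2 fold change was 1 or more in either direction. Of all 20716 genes tested, 4.22% were called, 3.49% as higher and 0.739% as lower. Only PSMB8-AS1, NEAT1, MALAT1 and ASMTL-AS1 would pass the filter on their untreated libraries alone. BISPR, NRIR and GBP1P1 passed through their treated level and so had to differ in order to be tested, and HCP5 did not pass. For all 8 genes the treated libraries lay above the untreated ones without overlap, which was so for 22.3% of all genes tested, or 46.6% counting both directions.

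**Figure D2:**
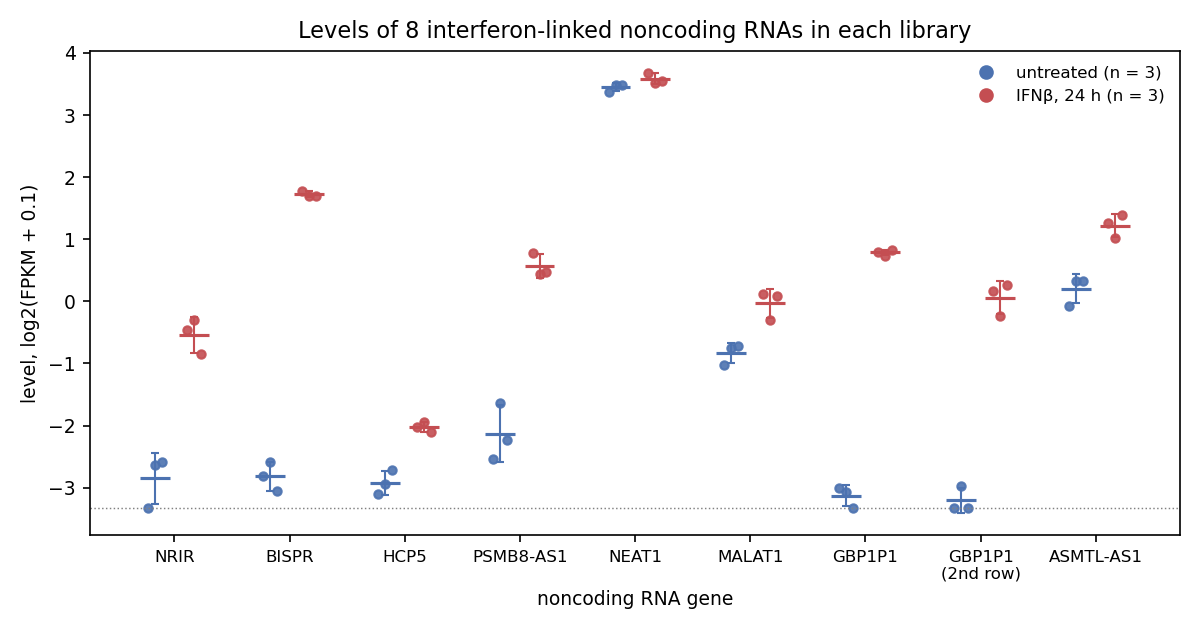
Level of each noncoding RNA as log2(FPKM + 0.1) (y axis) in 3 untreated and 3 IFNβ-treated libraries, with points for libraries, bars for means and whiskers for S.D., and a dotted line at 0 FPKM. BISPR and GBP1P1 lie near the dotted line in untreated cells and well above it after IFNβ, whereas NEAT1 is high in both groups.

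In untreated cells NEAT1 had the highest level, followed in order by ASMTL-AS1, MALAT1, PSMB8-AS1, BISPR, NRIR, HCP5 and GBP1P1. The neighbours in this order were separate down to BISPR, and the libraries of BISPR and NRIR, NRIR and HCP5, and HCP5 and GBP1P1 overlapped. After IFNβ the order was NEAT1, BISPR, ASMTL-AS1, GBP1P1, PSMB8-AS1, MALAT1, NRIR and HCP5, with overlap between GBP1P1 and PSMB8-AS1 and between MALAT1 and NRIR. BISPR thus stood behind PSMB8-AS1 in untreated cells and directly behind NEAT1 in treated cells, and GBP1P1 was last before IFNβ and above PSMB8-AS1 in mean level after it. Both orders depend on the gene lengths behind the FPKM and on how shared exons were counted.

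BISPR (ENSG00000282851, chr19:17405686-17419324, plus strand) had 0.0431, 0.0664 and 0.0200 FPKM in the untreated libraries and 3.34, 3.13 and 3.15 FPKM after IFNβ. These levels rest on 3, 6 and 2 fragments untreated and on 313, 238 and 277 fragments treated. Untreated BISPR was thus near the limit of what these libraries can count, while all 3 treated libraries held a clear signal. The mean went from 0.0432 ± 0.0232 to 3.21 ± 0.116 FPKM (S.D., n = 3), and the ratio of fragments per library total was 76.0 with an exact interval of 42.2 to 152.75 (95%, counting error only). BISPR rose by a log2 fold change of 4.54 (SE 0.16, limma adjusted p = 5.8e-06), the second largest of the 3684 long noncoding RNA genes tested on log2(FPKM + 0.1). That scale caps the change of genes near 0: the log2 fold change of BISPR was 2.01 with a pseudocount of 1 and 6.02 with 0.01, and by fragment ratio LINC02574, at 126, stood above BISPR.

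BST2, the coding gene for tetherin, which holds budding virus particles at the cell surface, starts 38 bases from BISPR in the opposite direction. It had 0.0398, 0.0918 and 0.0552 FPKM untreated, from 6 fragments in all, and 264, 261 and 266 FPKM after IFNβ. BST2 rose by a log2 fold change of 10.68 (limma adjusted p = 2.2e-08), with a fragment ratio of 4139 (exact 95% interval 1901 to 11279). Both genes of this head-to-head pair were thus nearly silent before treatment and present in every treated library. The BISPR level was 69.3% of that of BST2 before and 1.21% after IFNβ, the first of these resting on 11 and 6 fragments.

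MVB12A, a subunit of the ESCRT-I sorting complex, runs in the same direction as BISPR and shares 607 of its exon bases. It had 10.5 ± 0.412 FPKM untreated and 11.4 ± 0.526 FPKM treated (S.D., n = 3), a log2 fold change of 0.10 that missed the threshold (limma adjusted p = 0.13). Even coverage of the exon bases that BISPR shares with MVB12A and other genes would have given BISPR 148 to 211 fragments per untreated library, against the 2 to 6 counted. In treated libraries the same reckoning gives 186 to 210 fragments, against the 238 to 313 counted. How many of the treated fragments lay on shared bases was not tested.

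NRIR (ENSG00000225964, chr2:6828514-6840464, minus strand) had 0, 0.0613 and 0.0663 FPKM in untreated and 0.626, 0.714 and 0.453 FPKM in treated libraries. It was counted with 0, 5 and 6 fragments untreated and with 53, 49 and 36 after IFNβ, so that the treated libraries lay above the untreated ones but rested on at most 53 fragments. Mean FPKM went from 0.0425 ± 0.0369 to 0.598 ± 0.132 (S.D., n = 3), with a fragment ratio of 12.7 (exact 95% interval 6.86 to 26.0). NRIR rose by a log2 fold change of 2.31 (SE 0.30, limma adjusted p = 0.0016), and ranked 25 among the long noncoding RNA genes tested.

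CMPK2, a mitochondrial nucleotide kinase gene, lies on the same strand and ends 106 bases before the start of NRIR, and RSAD2, which encodes viperin, starts 25342 bases from it in the other direction. CMPK2 had 0.618, 0.829 and 0.720 FPKM untreated and 33.8, 33.5 and 33.8 FPKM treated, and rose by a log2 fold change of 5.37 (limma adjusted p = 1.9e-07). RSAD2 had 6, 6 and 0 fragments untreated and 144, 138 and 142 FPKM treated, a log2 fold change of 10.13 (limma adjusted p = 7.3e-08). NRIR thus stood at 5.89% of the CMPK2 level before and at 1.77% after IFNβ. The deposited FPKM use 2749 bases for NRIR and 2195 for CMPK2, against 973 and 4302 exon bases in GENCODE release 29, so these shares and the place of NRIR in the order of levels depend on the gene model. NRIR lies downstream of CMPK2 on the same strand with no shared exon, and whether fragments that run past the end of CMPK2 were counted for NRIR was not tested.

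PSMB8-AS1 (ENSG00000204261, chr6:32844086-32846495, plus strand) had 0.0723, 0.223 and 0.113 FPKM untreated and 1.62, 1.26 and 1.29 FPKM after IFNβ. The fragments were 4, 16 and 9 against 121, 76 and 90. Among the untreated libraries the second stood highest, and all of them lay below every treated library. From 0.136 ± 0.0777 the mean went to 1.39 ± 0.203 FPKM (S.D., n = 3), with a fragment ratio of 9.99 (exact 95% interval 6.80 to 15.2). PSMB8-AS1 rose by a log2 fold change of 2.70 (SE 0.26, limma adjusted p = 4.9e-04), which ranked 15 among the long noncoding RNA genes tested.

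Each of the 4 neighbours of PSMB8-AS1 rose as well. PSMB8 and PSMB9, catalytic subunits of the immunoproteasome, went from 9.07 ± 0.572 to 37.7 ± 0.948 FPKM and from 2.33 ± 0.395 to 30.1 ± 1.24 FPKM (S.D., n = 3). TAP1 and TAP2, which together carry peptides into the endoplasmic reticulum, went from 6.88 ± 0.582 to 108 ± 2.62 FPKM and from 8.72 ± 0.278 to 22.5 ± 0.302 FPKM. The log2 fold changes were 2.05 for PSMB8, 3.65 for PSMB9, 3.96 for TAP1 and 1.36 for TAP2, so that the change of PSMB8-AS1 lay within their range. PSMB8-AS1 shares 618 exon bases with PSMB8 and 456 with TAP1, both on the opposite strand, and 174 with PSMB9 on its own strand. Even coverage of these bases would have given 209 to 288 fragments per untreated and 1988 to 2346 per treated library, far above the 4 to 121 counted for PSMB8-AS1. Whether the counting used strand is not stated, and whether a part of the counted fragments belongs to the coding genes was not tested.

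HCP5 (ENSG00000206337, chr6:31400702-31477506, plus strand) was the lowest of the 8 genes after IFNβ. Its untreated libraries had 0.0158, 0.0305 and 0.0522 FPKM from 4, 10 and 19 fragments, and its treated libraries 0.147, 0.159 and 0.131 FPKM from 50, 44 and 42 fragments. The groups did not overlap, with means of 0.0328 ± 0.0183 and 0.146 ± 0.0139 FPKM (S.D., n = 3) and a fragment ratio of 4.16 (exact 95% interval 2.83 to 6.28). HCP5 did not reach the mean of 0.1 FPKM needed for the test. Without that filter its log2 difference was 0.90 (limma adjusted p = 0.025), under the fold change needed for a DEG. That size depends on the 0.1 added to each value, which is more than any untreated value of HCP5, whereas the fragment ratio of 4.16 has nothing added. Of the 35303 genes in that fit, 2.5% were called and 8.34% had an adjusted p under 0.05 with a higher treated level. The deposited FPKM use a length of 11058 bases for HCP5, against 3138 exon bases in GENCODE release 29, so its level per base of the shorter model would be higher. Whether HCP5 would pass the filter and be called with that model was not tested, so its missing call depends on the gene model and the scale.

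HLA-B, a class I heavy chain gene 43514 bases from HCP5, had 2.04, 2.14 and 2.12 FPKM untreated and 44.2, 48.1 and 47.6 FPKM after IFNβ, and rose by a log2 fold change of 4.41 (limma adjusted p = 1.2e-08). HCP5 was at 1.57% of the HLA-B level before and at 0.313% after treatment. MICA and MICB encode stress ligands of the NKG2D receptor of natural killer cells. MICA, which shares 62 exon bases with HCP5, went from 5.04 ± 0.161 to 6.91 ± 0.121 FPKM (log2 fold change 0.45, limma adjusted p = 2.3e-04), too small a change to be called. MICB had 0.115 ± 0.0353 and 0.171 ± 0.0773 FPKM, which did not differ beyond the spread (limma adjusted p = 0.53).

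GBP1P1 (ENSG00000225492, chr1:89407679-89426243, plus strand) had 0.0252, 0.0194 and 0 FPKM untreated and 1.64, 1.56 and 1.67 FPKM after IFNβ. Only 1, 1 and 0 fragments were counted in the untreated libraries, against 88, 68 and 84 in the treated ones. The pseudogene was thus at the limit of detection before treatment, and the fragment ratio of 121 had a wide exact 95% interval of 33.2 to 1006. GBP1P1 rose by a log2 fold change of 3.92 (SE 0.17, limma adjusted p = 1.7e-05), a size that depends on the 0.1 added to each value. A second row with this symbol, ENSG00000290525, which is not in GENCODE release 29, had 0, 1 and 0 fragments untreated and 39, 23 and 39 treated, and rose by 3.27 (limma adjusted p = 1.4e-04). The division of fragments between both rows, and between GBP1P1 and the coding members of its family, is uncertain.

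GBP1, GBP2 and GBP3 encode interferon-inducible GTPases of host defence and lie 257223 to 384785 bases from GBP1P1, as related genes and not its nearest ones. The nearest coding gene is GBP6, 21218 bases away, which was not analysed here. GBP1 had 5.30, 5.33 and 5.83 FPKM untreated and 55.9, 53.5 and 54.4 FPKM treated. All 3 genes rose, with log2 fold changes of 3.29 for GBP1, 2.43 for GBP2 and 2.18 for GBP3. Unlike GBP1P1, these genes were well above the limit of detection before IFNβ, the lowest being GBP2 with 0.963 ± 0.0590 FPKM (S.D., n = 3). The GBP1P1 level was 0.271% of that of GBP1 before and 2.98% after treatment.

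ASMTL-AS1 (ENSG00000236017, chrX:1401769-1414028, plus strand) had 0.852, 1.16 and 1.16 FPKM in untreated libraries and 2.29, 1.92 and 2.51 FPKM after IFNβ. The means were 1.06 ± 0.178 and 2.24 ± 0.301 FPKM (S.D., n = 3), from 26 to 51 and 64 to 97 fragments, with no overlap between groups. ASMTL-AS1 rose by a log2 fold change of 1.02 (SE 0.15, limma adjusted p = 0.0030), just past the fold needed. It was no longer a DEG without untreated 1, at 0.88, nor without IFNβ 3, at 0.93, although the adjusted p stayed under 0.05 in both. ASMTL-AS1 ranked 214 of the 3684 long noncoding RNA genes, and it is among the genes that the study itself selected on these libraries.

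ASMTL, a gene related to the last enzyme of melatonin synthesis, shares 225 exon bases with ASMTL-AS1 on the opposite strand. It went from 7.88 ± 0.272 to 10.3 ± 0.373 FPKM (S.D., n = 3), a log2 fold change of 0.38 (limma adjusted p = 7.4e-04) that was not called. Even coverage of the shared bases would give 42 to 59 fragments per untreated and 56 to 74 per treated library, a size like that of the fragments counted for ASMTL-AS1. How many of those came from ASMTL was not tested. SLC25A6, which encodes an ADP/ATP carrier of mitochondria, lies 9045 bases away and had 275 ± 2.96 FPKM untreated and 230.4 ± 2.47 FPKM treated (log2 fold change -0.25, limma adjusted p = 1.1e-04, not called). P2RY8, a receptor gene, had 1 fragment over the untreated and 4 over the treated libraries and was not tested.

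NEAT1 (ENSG00000245532, chr11:65422774-65445540, plus strand) was the most abundant of the 8 noncoding RNAs in both groups. It had 10.3, 11.1 and 11.1 FPKM untreated and 12.7, 11.4 and 11.7 FPKM after IFNβ, from 5352 to 8923 fragments. The means of 10.8 ± 0.470 and 11.9 ± 0.707 FPKM (S.D., n = 3) gave a log2 fold change of 0.14 (SE 0.05), which did not pass the test (limma adjusted p = 0.097). With limma-voom on the recovered fragments the same change had an adjusted p of 0.0026, where 38.3% of all genes had one under 0.05 and 5.33% were called. NEAT1 was thus not a DEG under either test, and its rank among long noncoding RNA genes was 1509.

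MALAT1 (ENSG00000251562, chr11:65497688-65506516, plus strand) had 0.392, 0.492 and 0.506 FPKM untreated and 0.986, 0.712 and 0.960 FPKM after IFNβ. These rest on 79 to 147 fragments untreated and 157 to 268 treated, without overlap, and the means were 0.463 ± 0.0624 and 0.886 ± 0.151 FPKM (S.D., n = 3). The fragment ratio was 1.90 (exact 95% interval 1.67 to 2.17), and the log2 fold change of 0.80 (SE 0.17) had a limma adjusted p of 0.012 but was under the fold needed for a DEG. An adjusted p under 0.05 with a higher treated level was found for 15.2% of all genes tested. TALAM1, the RNA antisense to MALAT1, had 4 fragments over the untreated and 1 over the treated libraries. Exon bases that MALAT1 may share with TALAM1 were not compared. Whether fragments on such bases were left out of the count of MALAT1 was not tested. The study enriched mRNA before sequencing, and MALAT1 and the long form of NEAT1 are known to end in a triple helix in place of a poly(A) tail, so the levels of both are those of the captured RNA.

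FRMD8 and SLC25A45 lie near NEAT1, and LTBP3 lies near MALAT1. FRMD8, which stabilises the sheddase ADAM17 at the cell surface, had 9.10 ± 0.0621 and 9.27 ± 0.633 FPKM (S.D., n = 3) in untreated and treated libraries. None of these 3 genes passed the test, with log2 fold changes from -0.02 for LTBP3 to 0.27 for SLC25A45. NEAT1 stood at 119% of the FRMD8 level before and at 129% after IFNβ.

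Of the 21 neighbouring or related coding genes, 20 were tested, and 11 were higher DEGs and none a lower DEG, with a median log2 fold change of 1.70 against 0.00 over all genes tested. Higher DEGs made up 3.49% of all genes tested. The 11 were chosen for NRIR, BISPR, HCP5, PSMB8-AS1 or GBP1P1, and BST2 and RSAD2 among them passed the filter only through their treated level and so had to differ. The change of each noncoding RNA was set against that of 1 paired coding gene, which was not always the nearest, by the log2 ratio of both levels in each library, with an exact two-sided permutation test over 3 against 3 libraries. For each of the 8 pairs the ratios of the groups did not overlap, and p was 0.1, the smallest this design allows, and 0.1 after adjustment over the 8 pairs. These tests therefore cannot pass the threshold of 0.05. Among single genes, 46.6% of those tested did not overlap between groups, and the share among other gene pairs was not counted.

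The pairs fell on both sides, and those of 7 noncoding RNAs are described. The noncoding RNA changed less than the paired gene for BISPR and BST2, by -6.14 on the log2 scale, for HCP5 and HLA-B, by -3.52, and for NRIR and CMPK2, by -3.06. With a pseudocount of 0.01 the difference of NRIR from CMPK2 was -1.56 (exact permutation test, adjusted p = 0.3). The nearest coding genes of BISPR and HCP5, MVB12A and MICA, had log2 fold changes of 0.10 and 0.45, below the 4.54 and 0.90 of the noncoding RNAs, so the direction for BISPR and HCP5 depends on the gene chosen. ASMTL-AS1 changed more than ASMTL, by 0.64, though how many of its fragments came from ASMTL was not tested. For NEAT1 and FRMD8 the difference was 0.11, and the change of neither gene passed the test. For PSMB8-AS1 and PSMB8 the difference was 0.65 and for GBP1P1 and GBP1 it was 0.62, and both turned negative with 1 in place of 0.1 added to each value, at -0.87 and -1.73. No direction is therefore given for the last 2 pairs on this scale. The fragment ratios, with nothing added, were 9.99 for PSMB8-AS1 and 4.18 for PSMB8, and 121 for GBP1P1 and 9.92 for GBP1. The ratio of GBP1P1 rests on 1, 1 and 0 untreated fragments.

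**Figure D3:**
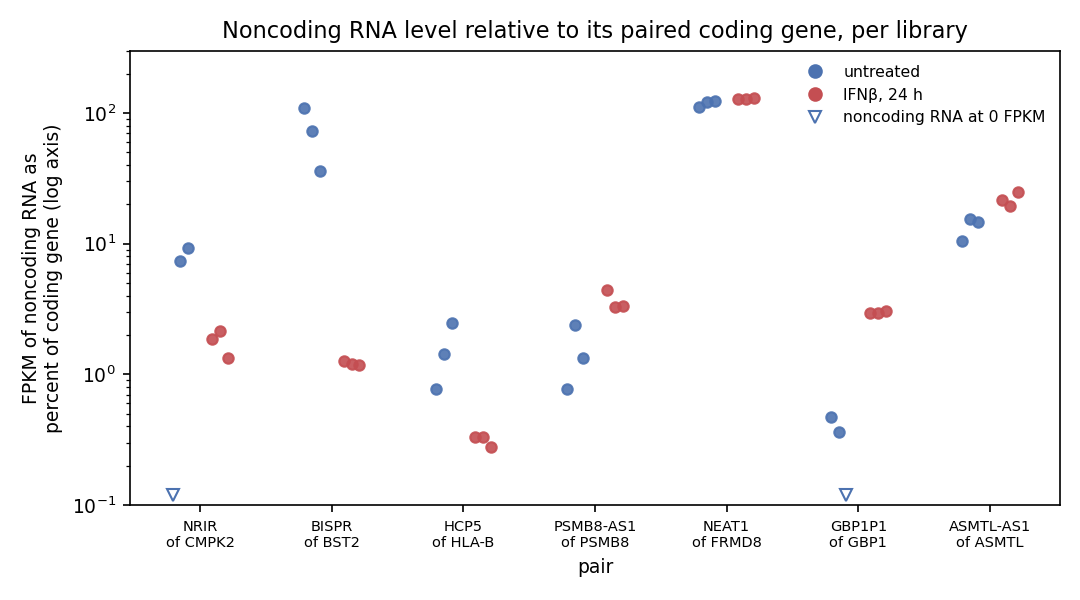
FPKM of 7 noncoding RNAs as a percentage of the FPKM of the paired coding gene (y axis, log scale) in each of 3 untreated and 3 IFNβ-treated libraries, with open triangles where the noncoding RNA was at 0 FPKM. BISPR went from 69.3% to 1.21% of BST2 (percent of the group means), and GBP1P1 from 0.271% to 2.98% of GBP1.

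Some of the 8 genes varied with the library as well as with the treatment. In untreated 1, the shallowest untreated library, 6 of the 8 had their lowest untreated value, and in IFNβ 2, the shallowest treated library, 6 of the 8 had their lowest treated value. Of all genes tested, 32.7% and 33.2% were lowest there. PSMB8-AS1, NEAT1, MALAT1 and ASMTL-AS1 were lowest in both libraries. The part of depth in these values was not tested, and FPKM are scaled by the fragments of the library.

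By the distance between their values over the 6 libraries, each centred on its mean, the nearest of 11996 genes to BISPR were IFI35, HELZ2 and GBP4, all 3 known as interferon-stimulated, at 0.284, 0.310 and 0.338. Nearest to GBP1P1 were SAMHD1, APOL3 and GCA, at 0.247, 0.248 and 0.266, SAMHD1 being a nucleotidase that restricts viruses. PSMB8-AS1 lay nearest to SLC2A12, REC8 and ISG20, and NRIR to SAA1, RHOT1P3 and CXCL16, with distances of 0.307 to 0.553 and 0.395 to 0.584. For ASMTL-AS1 the nearest were PRR16, ANKRD20A1 and ENSG00000289459, at 0.171 to 0.226. The distance includes the change between groups and is a description over 6 libraries.

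Of 25 further names of noncoding RNAs with a known or presumed tie to interferon, 23 were matched in the table, 5 of these were at 0 in every library and 13 were tested. Higher DEGs were LINC02574, USP30-AS1, LUCAT1, IRF1-AS1 and CHROMR, and none was a lower DEG, beside 3.49% higher DEGs over all genes tested. LINC02574 and USP30-AS1 passed the filter only through their treated level and so had to differ. The median log2 fold change of the 13 was 0.34. CHROMR, known for its part in cholesterol efflux and in antiviral responses, had 1.81, 1.77 and 1.97 FPKM untreated and 5.47, 5.24 and 5.36 FPKM treated, and rose by 1.49 (limma adjusted p = 7.3e-06). LUCAT1, a known brake on type I interferon responses, went from 0.373 ± 0.0727 to 1.94 ± 0.0556 FPKM (S.D., n = 3), a log2 fold change of 2.12. IRF1-AS1, antisense to the transcription factor gene IRF1, went from 0.228 ± 0.0170 to 0.980 ± 0.0786 FPKM, at 1.72, beside a log2 fold change of 1.21 for IRF1 itself.

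LINC02574 and USP30-AS1 each had 1 fragment over the 3 untreated libraries, against 125 and 24 over the treated ones, with fragment ratios of 126 (exact 95% interval 22.2 to 5021) and 24.2 (3.95 to 996). NRAV, known as a negative regulator of interferon-stimulated genes, had 3.78, 3.97 and 3.60 FPKM untreated and 2.04, 2.18 and 2.39 FPKM treated. The treated libraries of NRAV lay below the untreated ones, at a log2 fold change of -0.75 (limma adjusted p = 4.7e-04), which was under the fold needed for a DEG. MIR155HG, the host of miR-155, had 3.09 ± 0.149 and 3.50 ± 0.153 FPKM and did not pass the test (limma adjusted p = 0.064).

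NEAT1 and MALAT1 were set beside 28 other noncoding RNAs known to be abundant in many cells, of which 21 were tested and 5 were at 0 in every library. None was a higher DEG and 2 were lower DEGs, DANCR and RMRP, with a median log2 fold change of -0.22 over the 21. Lower DEGs made up 0.739% of all genes tested. DANCR, a host gene of small nucleolar RNAs, had 7.88, 7.65 and 7.40 FPKM untreated and 2.28, 2.19 and 2.12 FPKM treated, and fell by 1.75 on the log2 scale (limma adjusted p = 1.4e-06). RMRP, the RNA of RNase MRP, had 25, 9 and 5 fragments untreated and none in the treated libraries, at least 4.82-fold lower against the level of 3 fragments per treated library (limma adjusted p = 0.0044). The untreated values of RMRP themselves spread from 0.575 to 4.14 FPKM. The libraries were enriched for mRNA, and TERC, RPPH1 and RN7SK of the same list were at 0 in every library. Whether the fall of RMRP, or a level of 0, reflects the capture of the RNA and not its amount in the cells was not tested.

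A further 10 of these RNAs had an adjusted p under 0.05 at a smaller change, and all 12 were lower after IFNβ. An adjusted p under 0.05 with a lower treated level was found for 17.5% of all genes tested. NORAD, which binds PUMILIO proteins, had 87.4 ± 2.01 FPKM untreated and 63.3 ± 1.25 FPKM treated (S.D., n = 3), a log2 fold change of -0.46. SNHG29, SNHG7 and GAS5, hosts of small nucleolar RNAs, had log2 fold changes of -0.37, -0.46 and -0.27. NEAT1 at 0.14 and MALAT1 at 0.80 lay on the other side of 0 from these named RNAs, though the difference between the genes was not tested. Not all of the list was lower, since its highest log2 fold change was 0.24, above that of NEAT1. The change of NEAT1 itself did not pass the test.

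NEAT1 builds paraspeckles together with RNA-binding proteins, and of 20 genes for such proteins all were tested and none was a DEG. An adjusted p under 0.05 was found for 15 of the 20, all of them lower after IFNβ, and the median log2 fold change of the 20 was -0.23. The share over all genes tested, of any level, was 17.5% lower at that adjusted p. SFPQ and NONO, the core pair that binds NEAT1, went from 95.03 ± 2.30 to 68.7 ± 1.42 FPKM and from 49.5 ± 0.711 to 45.1 ± 0.606 FPKM (S.D., n = 3), at log2 fold changes of -0.47 and -0.13. RBM14, which is needed to assemble paraspeckles, had 19.5, 18.6 and 19.6 FPKM untreated and 10.5, 10.3 and 9.76 FPKM treated, at -0.91 (limma adjusted p = 1.4e-05).

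Of 15 genes of interferon signalling, 14 were tested, and 6 were higher DEGs and none a lower DEG, with a median log2 fold change of 0.70. Over all genes tested, 3.49% were higher DEGs. Among these were USP18, an inhibitor of the receptor, at 6.38, the transcription factors STAT2, IRF9 and IRF1 at 3.35, 2.79 and 1.21, and the feedback inhibitor SOCS1 at 1.15. The IRF7 gene, with 0.740 ± 0.148 and 0.749 ± 0.153 FPKM (S.D., n = 3), did not pass the test, and neither did SOCS3. The kinase genes JAK1 and TYK2 had log2 fold changes of 0.38 and 0.16, too small to be called.

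**Figure D4:**
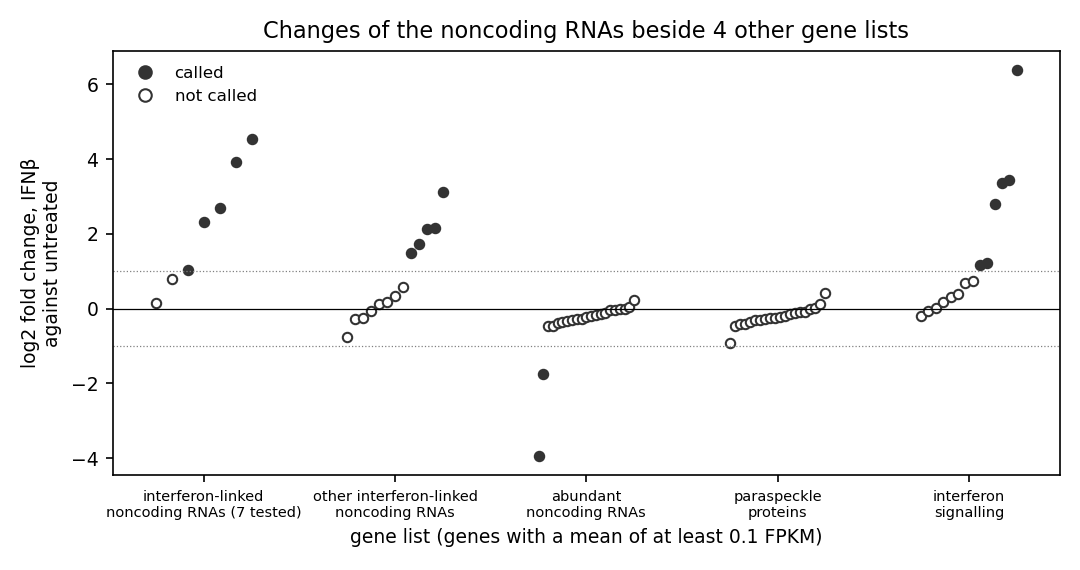
Log2 fold changes between IFNβ-treated and untreated libraries (y axis) of the tested genes of each list (x axis), sorted within a list, with filled points for DEGs and dotted lines at -1 and 1. The abundant noncoding RNAs and the paraspeckle proteins lie mostly below 0, and DEGs of the other 3 lists are all higher.

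The 8 genes were read against all long noncoding RNA genes of GENCODE release 29. Of 3684 such genes tested, 136 were higher and 56 lower DEGs, 5.21% in all, against 415 higher and 28 lower of 12761 protein-coding genes, 3.47%. The long noncoding RNA genes had a median of 13.1 fragments per library and 60.3% of them averaged under 20, compared with 868.5 fragments and 5.26% for protein-coding genes. Of the 8 genes, NEAT1, MALAT1 and, through its treated libraries, BISPR averaged over 100 fragments per library, and untreated BISPR, NRIR and GBP1P1 had at most 6 in any library. The treated levels of the latter 3 genes rest on 36 or more fragments per library, whereas the size of their change is set by very few untreated fragments.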

How the data were processed

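RNA of 6 HT1080 libraries, 3 untreated and 3 treated with IFNβ, was sequenced as paired reads after mRNA enrichment. The submitters' processing notes name fastp, HISAT2, StringTie and GRCh38, and versions, annotation and strand setting are not given in the sources used here. The deposited values are FPKM per Ensembl gene, computed by the authors for each library without pooling. Of 62710 IDs, 42303 had a symbol in a table of gene names, and 4436 are not in GENCODE release 29, from which positions and exon overlaps on GRCh38 were taken. Whole fragments were recovered for 35302 of the 35303 genes above 0 from the steps between their values.

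The groups were fitted in limma 3.58.1 under R 4.3.3 (lmFit, then eBayes with a trend). The scale was log2(FPKM + 0.1), which understates the change of low genes, and genes needed a mean of at least 0.1 FPKM. P-values were Benjamini-Hochberg adjusted over all genes tested. Other steps used Python 3.11.15 with pandas 2.3.3, numpy 2.4.6 and scipy 1.17.1. Intervals of fragment ratios are exact, at 95%, and cover counting error only. Motif windows came from RefSeq (GRCh38.p14). The limma procedure was tested on simulated fragments. The changed genes there were drawn only from genes with many expected fragments, so that test does not cover calls that rest on few fragments.

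The members, the lists and the neighbours were chosen with earlier results of these data known. Named were all 8 members, their fixed neighbouring or related coding genes, the DEGs of each list (up to 6 by absolute log2 fold change), list genes whose role is described, and the 3 genes with a mean of at least 1 FPKM nearest in pattern to each member called. Alternatives were other pseudocounts, filters and scalings, no trend, a replicate block, leaving out each library, and limma-voom on the fragments. Some list genes and neighbours enter the counts and are not reported here.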

Additional observations from a re-analysis of the deposited data

How the results depend on the processing

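The call of ASMTL-AS1 was lost with a pseudocount of 1 (log2 fold change 0.65), with quantile normalization (0.94) and without untreated 1 or IFNβ 3, its range over the fits that each left out a library being 0.88 to 1.12. With a pseudocount of 1, NRIR (0.61) and the second GBP1P1 row (0.95) also fell under the fold needed, 3 noncoding RNAs and 304 genes in all were called, and the differences of PSMB8-AS1 from PSMB8 (-0.87) and of GBP1P1 from GBP1 (-1.73) turned negative. With a pseudocount of 0.01 the difference of NRIR from CMPK2 was -1.56. With a mean of at least 1 FPKM required, 2 noncoding RNAs and 425 genes were called. The further interferon-linked noncoding RNAs had 2 calls with a pseudocount of 1 and with the higher filter, and 5 with a pseudocount of 0.01. The abundant noncoding RNAs had 1 call with the higher filter. An adjusted p under 0.05 alone was met by 6778 genes. A higher filter tests fewer genes and an adjusted p alone drops the fold needed, and for the remaining settings the cause was not tested.

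Leaving out each library in turn gave 4 to 5 called noncoding RNAs and 809 to 867 called genes. Log2 fold changes then ranged from 2.07 to 2.47 for NRIR, 4.42 to 4.66 for BISPR, 2.50 to 2.95 for PSMB8-AS1, 3.82 to 3.98 for GBP1P1, 0.71 to 0.94 for MALAT1 and 0.09 to 0.17 for NEAT1. HCP5 passed the filter in 2 of these fits and was called in none. The deviations of same-numbered libraries from their group means had correlations of 0.05, -0.02 and 0.12. The labels do not say whether same-numbered libraries were paired, and these correlations cannot exclude it. With the replicate number as a block, 829 genes and 5 noncoding RNAs were called. Higher genes made up 82.5% of the calls and 73.4% with quantile normalization, which moved the median of all genes by -0.06. Depth limits BISPR, NRIR, HCP5 and GBP1P1, whose untreated levels rest on few fragments.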
